A study of Mus musculus with 10 samples.

Results

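The genes described here mark the extraembryonic endoderm of the mouse embryo. The set holds 9 genes, chosen by name as factors, receptors and matrix genes of primitive, parietal and visceral endoderm: Gata4, Gata6, Sox7, Sox17, Hnf4a, Pdgfra, Dab2, Lama1 and Col4a1. All 9 were found among the 52636 gene identifiers of the count tables, and all 9 were among the 16005 genes with enough counts to be tested. They were measured by RNA sequencing in E14 mouse embryonic stem cells, a line derived from the blastocyst, kept in serum with LIF and inhibitors of MEK and GSK3 and then moved to medium without LIF and the inhibitors but with 2 µM retinoic acid. After 24 h of retinoic acid, unedited cells (WT, 2 libraries) were compared with cells lacking a DNA element bound by the chromatin protein CTCF (CBE-KO, 2 libraries). Both genotypes had the same culture and treatment, and no untreated cells were analysed here. The study's title places the element in contacts between its neighbouring enhancers and the HoxA genes, and the comparison asks which genes change when it is gone. The 6 Capture-C samples of the series, which measure chromatin contacts, were not analysed here. The labels do not say how many CBE-KO clones there were, so a clone and the deletion cannot be told apart.

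Primitive endoderm is the lineage that separates from the epiblast in the inner cell mass of the blastocyst. FGF signalling through ERK raises the GATA factors in these cells, the GATA factors raise the Sox factors and Pdgfra, and Nanog opposes them. The lineage then splits into parietal endoderm, which lays down the thick basement membrane of laminin and type IV collagen, and visceral endoderm, which takes up and secretes nutrients under control of Hnf4a and Foxa factors. Retinoic acid is a classical inducer of both types in embryonal carcinoma cells, and in embryonic stem cells it can give a minority of endoderm cells beside neural ones.

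The 4 libraries held 14108038 to 15632960 counts, so that 3 counts, the floor used here, lay between 0.185 and 0.218 CPM (read counts normalised to library size with TMM factors, which are trimmed means of log ratios). All markers of the labelled cell type were present: the 10 embryonic stem cell markers summed to 7804 to 7985 CPM in WT and 8179 to 8311 CPM in CBE-KO. Ctcf did not pass the test (log2 difference -0.05 with SE 0.05, adjusted p = 0.472 in edgeR), and the deleted element is noncoding, so counts could not check its loss. The genotypes also differed in Y-linked genes. WT replicates 1 and 2 held 6 and 5 reads of Ddx3y, 3 and 5 of Eif2s3y and 2 and 0 of Uty. In CBE-KO the same genes reached 920 and 822, 888 and 779, and 293 and 267 reads. The 2 sets of libraries therefore came from cells that differed in expression of the Y chromosome as well as in the labelled deletion. The part of that difference in the results below was not tested, and the deletion and other differences between the cell populations cannot be told apart.

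Of the 9 genes, 5 were higher in CBE-KO (Gata4, Sox7, Dab2, Lama1 and Col4a1), 1 was lower (Hnf4a) and 3 did not pass (Gata6, Sox17 and Pdgfra), by edgeR's quasi-likelihood test at a Benjamini-Hochberg adjusted p under 0.05. Over all 16005 tested genes 43.1% passed, 21.6% as higher and 21.5% as lower, so passing the test was common in this comparison and the number of genes called says little about the set. The median log2 fold change of the 9 genes was 0.37, beside 0.01 for all tested genes. This median is the value of Col4a1, and without WT replicate 1 it was 0.22. In the same 6 genes both libraries of one genotype lay above both of the other, as they did for 70.4% of all tested genes. The rises were under 2-fold, from 1.29-fold for Col4a1 to 1.75-fold for Sox7, and the fall of Hnf4a was 3.08-fold. In a bulk sample such a change cannot tell a different number of expressing cells from a different amount of RNA per cell.

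**Figure D1:**
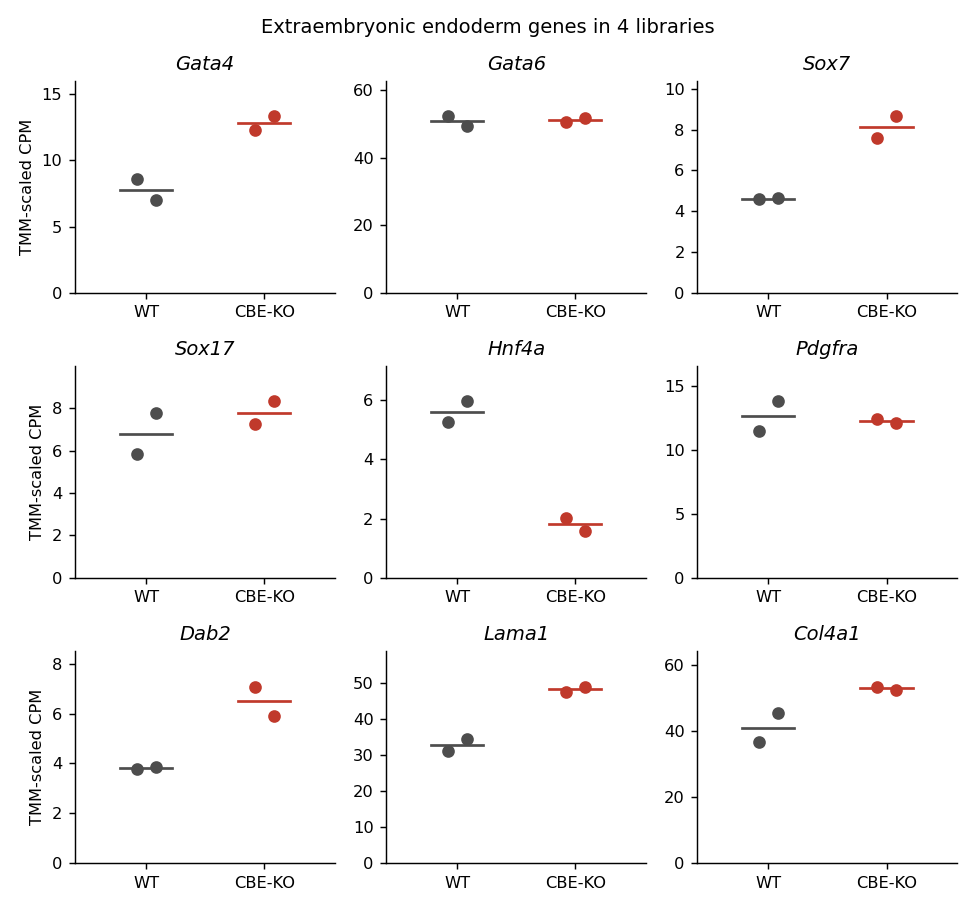
Level of each of the 9 genes in TMM-scaled CPM (vertical axes, linear, starting at 0 and differing between panels) in the 2 WT (grey) and 2 CBE-KO (red) libraries; points are libraries and bars are means. The genotypes are apart for Gata4, Sox7, Hnf4a, Dab2, Lama1 and Col4a1 and overlap for Gata6, Sox17 and Pdgfra.

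Of the GATA factors at the head of the lineage, Gata4 passed the test and Gata6 did not. Gata6, the zinc finger factor that acts earliest in primitive endoderm (chromosome 18), stood at 52.2 and 49.4 CPM in WT and 50.6 and 51.7 CPM in CBE-KO. These values overlapped, and the log2 fold change was 0.01 with a 95% interval from -0.14 to 0.16 (edgeR adjusted p = 0.935). Its sign depended on the scaling and is not a direction. Its relative Gata4 (chromosome 14, 63198914 to 63271712, GRCm38), which follows Gata6 and carries the programme into parietal and visceral endoderm, had 8.56 and 6.98 CPM in WT and 12.3 and 13.3 CPM in CBE-KO. Both CBE-KO libraries were above both WT libraries, and the log2 fold change was 0.72 (SE 0.16, adjusted p = 0.00113 in edgeR). The log2 ratio of Gata4 to Gata6 counts within a library, which no scaling affects, was -2.72 ± 0.15 in WT and -1.996 ± 0.06 in CBE-KO (SD, n = 2 each). The 2 genotypes did not overlap in this ratio, and an exact two-sided permutation test gave p = 0.333, the smallest value that 2 libraries against 2 allow. With so few libraries this test cannot decide whether the pair changed differently. The 95% interval of Gata4, from 0.39 to 1.05, did not overlap that of Gata6.

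Of the pair of SoxF factors, Sox7 passed the test and Sox17 did not. Sox7, an HMG-box factor of primitive and parietal endoderm (chromosome 14, 63943706 to 63950732), had 4.59 and 4.65 CPM in WT and 7.58 and 8.66 CPM in CBE-KO. It had the highest log2 fold change of the 9 genes, 0.81 (SE 0.19, adjusted p = 0.00199 in edgeR). Sox17, which acts in both extraembryonic and definitive endoderm (chromosome 1, 4490928 to 4497426), had 5.82 and 7.78 CPM in WT and 7.27 and 8.32 CPM in CBE-KO. One CBE-KO library lay below the higher WT library. Its log2 fold change was 0.20 with a 95% interval from -0.20 to 0.59 (edgeR adjusted p = 0.425), an interval that includes a rise of the size seen for Lama1. The log2 ratio of Sox7 to Sox17 counts went from -0.34 and -0.74 in WT to 0.06 and 0.06 in CBE-KO, again without overlap (exact permutation p = 0.333, the smallest possible). The intervals of Sox7 and Sox17 overlapped, but overlap is not a test of their difference. The permutation test cannot decide it with so few libraries, so a difference between the pair is not shown.

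Gata4 and Sox7 lie on the same chromosome, 671993 bases apart in the GRCm38 RefSeq gene table. The table lists 15 genes between them, and 5 of these were tested. None of the 5 was higher: 4 were lower and Fam167a did not pass. Tdh, the threonine dehydrogenase gene that mouse embryonic stem cells express highly, fell from 60.9 to 29.2 CPM (log2 fold change -1.06, SE 0.08, adjusted p = 1.11e-08 in edgeR). Pinx1, Xkr6 and Mtmr9 fell by 0.89, 0.86 and 0.52 on the log2 scale. The rises of Gata4 and Sox7 were therefore not shared by the tested genes between them. This stretch was looked at after the values of Gata4 and Sox7 were seen. HoxA, the locus of the study's question, lies on chromosome 6, which carries none of the 9 genes.

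**Figure D2:**
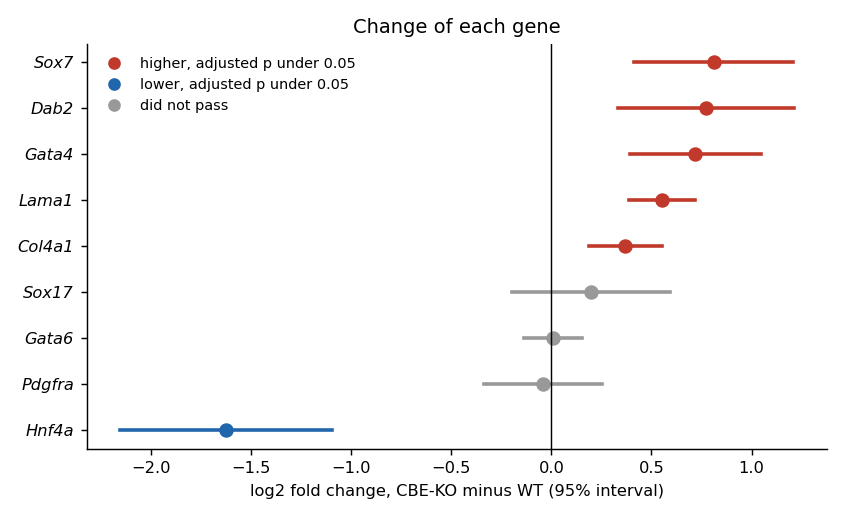
Log2 fold change (CBE-KO minus WT, horizontal axis) of each of the 9 genes, with points for the estimate and lines for its 95% interval. Hnf4a stands alone on the lower side at -1.62, and the intervals of Sox17, Gata6 and Pdgfra include 0.

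Hnf4a encodes a nuclear receptor that directs the secretory and metabolic genes of visceral endoderm and later of liver (chromosome 2, 163506811 to 163572907). It was the one gene of the set that was lower. The WT libraries held 77 and 82 reads and the CBE-KO libraries 33 and 23, or 5.27 and 5.96 CPM against 2.03 and 1.58 CPM. The groups were apart in every library, with a log2 fold change of -1.62 (SE 0.25, adjusted p = 5.11e-05 in edgeR). Among all tested genes 3.63% had an absolute log2 fold change at least as large. The call held in each of the 14 alternatives tried, with values from -1.82 to -1.46.

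RefSeq (GRCm38.p6) gives Hnf4a a pair of starts 40298 bases apart, and the counts per gene do not tell which was used. The bases before each are shown because Hnf4a changed most in the set. Capitals mark the letters AGATAA, 1 form of the sites that GATA factors bind, and other forms were not searched.
Hnf4a, upstream start at chr2:163506607-163506810 on the + strand: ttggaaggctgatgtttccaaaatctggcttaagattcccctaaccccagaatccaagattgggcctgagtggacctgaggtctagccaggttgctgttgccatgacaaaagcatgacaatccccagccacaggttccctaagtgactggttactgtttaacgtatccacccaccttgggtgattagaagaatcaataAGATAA
Hnf4a, downstream start at chr2:163546905-163547154 on the + strand: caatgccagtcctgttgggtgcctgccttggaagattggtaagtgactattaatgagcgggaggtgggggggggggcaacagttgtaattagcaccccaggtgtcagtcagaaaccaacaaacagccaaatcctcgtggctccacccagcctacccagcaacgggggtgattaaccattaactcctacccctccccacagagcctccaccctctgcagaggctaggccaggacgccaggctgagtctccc
The upstream window is cut where RefSeq places an earlier transcript start, so that 204 bases are shown. It ends in 1 match, whose first base lies 52 bases before the start named in the table, and the downstream window of 250 bases holds none. On either strand AGATAA or its complement TTATCT was present in 9.988% of 32851 RefSeq windows of 250 bases before a start. Windows were available for 4 of the 9 genes, 6 windows in all (Hnf4a and Dab2 with 2 each, Pdgfra and Col4a1 with 1 each). The match in Hnf4a was the only one to AGATAA or TTATCT. The SOX letters AACAAT (or ATTGTT, 9.424% of windows) and the nuclear receptor half-site AGGTCA (or TGACCT, 14.02% of windows) occurred in none of the 6. A match is a run of letters and not a shown binding site.

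Dab2 and Pdgfra carry the signalling and uptake side of the set. Dab2 (chromosome 15, 6299788 to 6440715) encodes a clathrin adaptor that endoderm cells use for receptor uptake and that orders them into an outer layer. The WT libraries gave 55 and 53 reads of it and the CBE-KO libraries 115 and 86, or 3.76 and 3.85 CPM against 7.09 and 5.91 CPM. Both CBE-KO libraries were above WT, and the log2 fold change was 0.77 (SE 0.21, adjusted p = 0.00599 in edgeR). This call was lost in DESeq2 (0.76, adjusted p = 0.0548) and in edgeR without CBE-KO replicate 1 (0.63, adjusted p = 0.0816). Dab2 likewise has a pair of RefSeq starts, 86959 bases apart. The bases before them are set here beside those of Hnf4a as windows of a gene that rose. They hold none of the 3 runs of letters searched, so no letter is in capitals. The upstream window does hold tgataa, which differs from AGATAA in its first letter and was not searched for.
Dab2, upstream start at chr15:6299539-6299787 on the + strand: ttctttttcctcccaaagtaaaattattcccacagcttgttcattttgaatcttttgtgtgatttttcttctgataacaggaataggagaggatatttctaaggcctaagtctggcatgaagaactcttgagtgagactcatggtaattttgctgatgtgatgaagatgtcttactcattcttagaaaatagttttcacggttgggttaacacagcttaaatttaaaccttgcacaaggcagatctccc
Dab2, downstream start at chr15:6386498-6386747 on the + strand: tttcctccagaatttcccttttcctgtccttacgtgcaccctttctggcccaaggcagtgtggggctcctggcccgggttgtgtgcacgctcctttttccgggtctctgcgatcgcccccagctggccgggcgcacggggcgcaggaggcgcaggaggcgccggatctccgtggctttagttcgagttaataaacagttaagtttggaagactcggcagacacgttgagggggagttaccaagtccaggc

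Pdgfra, the receptor by which primitive endoderm precursors are commonly identified (chromosome 5, 75151322 to 75198206), had 11.5 and 13.8 CPM in WT and 12.4 and 12.1 CPM in CBE-KO. Both CBE-KO values lay between the WT values. The log2 fold change was -0.04 with a 95% interval from -0.34 to 0.25 (edgeR adjusted p = 0.838), and its sign became positive with library totals. Of 5 genes for PDGF ligands and the second receptor 4 were tested, 2 rose, 1 fell and 1 did not pass. Pdgfa, the ligand that acts on Pdgfra in the blastocyst, fell from 59.6 and 63.3 CPM to 24.9 and 25.6 CPM, 2.43-fold (log2 fold change -1.28, SE 0.08, adjusted p = 6.60e-10 in edgeR). Pdgfc, another ligand of Pdgfra, rose from 11.5 and 11.3 to 17.4 and 16.8 CPM, 1.51-fold. Pdgfrb, the receptor of mesenchymal and pericyte cells, rose 1.78-fold, from 13.3 and 14.9 to 25.4 and 24.9 CPM. Pdgfb did not pass (log2 fold change 0.07, edgeR adjusted p = 0.890), and Pdgfd, at 1, 1, 13 and 7 reads in WT replicates 1 and 2 and CBE-KO replicates 1 and 2, did not enter the test.

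The basement membrane genes of the set both rose. Lama1, the laminin alpha chain of the first embryonic basement membranes (chromosome 17, 67697127 to 67822645), had 31.3 and 34.6 CPM in WT and 47.6 and 49.1 CPM in CBE-KO. The groups were well apart, and its log2 fold change of 0.55 ± 0.08 (SE) had the lowest adjusted p of the 9 genes (edgeR, 1.93e-05). Col4a1, a chain of type IV collagen (chromosome 8, 11198423 to 11312889), had 36.7 and 45.5 CPM in WT and 53.5 and 52.5 CPM in CBE-KO. The 2 genotypes did not overlap, and the log2 fold change was 0.37 (SE 0.09, adjusted p = 0.00227 in edgeR). The size of the Col4a1 rise depended on WT replicate 1, without which it was 0.22 (edgeR adjusted p = 0.0329).

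Other genes of the same matrix mostly moved the same way by small amounts. Of 11 further basement membrane genes, all tested, 7 rose, 1 fell and 3 did not pass, with a median log2 fold change of 0.28. Col4a2, whose gene stands head to head with Col4a1 and supplies its partner chain, rose 1.29-fold, from 23.7 and 30.1 to 33.5 and 35.9 CPM, but did not pass without WT replicate 1 (0.20, edgeR adjusted p = 0.155). Nid1, which links laminin to collagen, rose 1.34-fold. P4ha2, a subunit of the enzyme that hydroxylates collagen prolines, rose from 22.04 and 22.03 to 37.1 and 34.98 CPM, 1.64-fold (log2 fold change 0.71, SE 0.09, adjusted p = 3.77e-06 in edgeR). Serpinh1, the collagen chaperone of the endoplasmic reticulum, rose 1.42-fold. The gene that fell was Hspg2, the proteoglycan perlecan (log2 fold change -0.19, edgeR adjusted p = 0.00574), a call that did not pass with library totals (adjusted p = 0.173) or without CBE-KO replicate 1 (adjusted p = 0.0641). Hspg2 lies outside the naming rule and was named after its value was seen.

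Markers of parietal endoderm beyond the matrix did not move as a block. Of 8 genes 7 were tested, 2 rose, 2 fell and 3 did not pass. Srgn, a proteoglycan core protein, rose 1.86-fold to 5.30 and 5.98 CPM, and Fst, which encodes the activin antagonist follistatin, rose 1.61-fold. Vim, the intermediate filament vimentin, fell from 200 and 196 to 148 and 149 CPM, and Snai1, a repressor of epithelial genes, fell from 13.6 and 14.5 to 10.6 and 10.6 CPM. In DESeq2 neither Fst nor Snai1 passed (0.227 and 0.112 as adjusted p). In edgeR the call of Fst was lost without any 1 of the 4 libraries (adjusted p from 0.0724 to 0.169), and that of Snai1 without WT replicate 2 or either CBE-KO library (adjusted p from 0.0566 to 0.0768). Thbd, thrombomodulin, a defining surface marker of parietal endoderm, had 1, 0, 3 and 0 counts in the 4 libraries.

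Visceral endoderm genes moved in opposite directions. Of 14 regulators and surface genes 10 were tested, 4 rose, 1 fell and 5 did not pass. Foxa1, a pioneer factor of endoderm that also responds to retinoic acid, rose from 2.81 and 3.42 CPM to 10.9 and 9.83 CPM, 3.34-fold (log2 fold change 1.74, SE 0.19, adjusted p = 1.50e-06 in edgeR). Foxa2, the related factor of definitive and visceral endoderm, did not pass (log2 fold change -0.08, edgeR adjusted p = 0.909). Hnf4a was thus lower in the libraries in which Foxa1 and Gata4 were higher.

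The uptake machinery of visceral endoderm showed the same division. Amn encodes amnionless, which carries the receptor cubilin to the cell surface, and it fell from 6.16 and 7.42 CPM to 2.96 and 3.16 CPM, 2.22-fold (log2 fold change -1.15, SE 0.22, adjusted p = 0.000332 in edgeR). Cubn, cubilin itself, rose from 3.56 and 3.49 to 6.16 and 5.29 CPM, 1.63-fold, although it did not pass in DESeq2 (adjusted p = 0.108) or without CBE-KO replicate 1 (edgeR adjusted p = 0.130). Lrp2, megalin, the large receptor that works with cubilin and binds Dab2, rose from 39.8 and 43.3 to 53.9 and 56.1 CPM, 1.32-fold. Dab2, Cubn and Lrp2 were thus higher and Amn lower in both CBE-KO libraries.

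**Figure D3:**
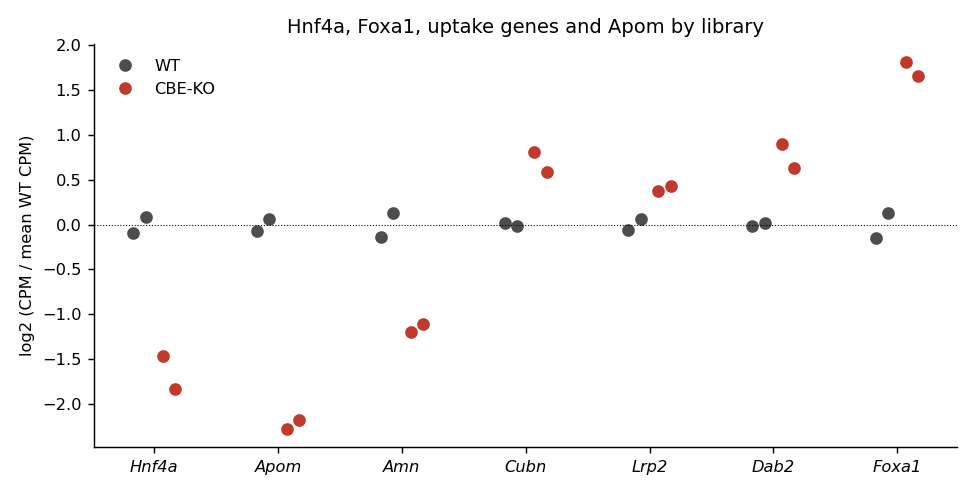
Log2 of TMM-scaled CPM over the mean WT CPM (vertical axis) for Hnf4a and 6 related genes in each library, WT in grey and CBE-KO in red. Hnf4a, Apom and Amn are lower in both CBE-KO libraries, and Cubn, Lrp2, Dab2 and Foxa1 are higher in both.

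Of 16 secreted products of visceral endoderm 5 had enough counts to be tested, of which 2 rose and 1 fell, and 7 had at most 3 counts in each library. The 16 summed to 367 and 360 CPM in WT and 408 and 426 CPM in CBE-KO, most of it from Apoe, with means of 326 and 394 CPM. Afp had 1, 2, 2 and 4 counts, Ttr 0, 0, 0 and 1, Apoa1 0, 2, 1 and 6, and Apoa4 0, 0, 1 and 0, in the order WT replicates 1 and 2, CBE-KO replicates 1 and 2. For these 4 genes a difference was not detectable at this depth. Among the 5 tested, Apom, which encodes an apolipoprotein of high-density lipoprotein, fell from 20.2 and 22.1 CPM to 4.37 and 4.67 CPM, 4.67-fold (log2 fold change -2.22, SE 0.15, adjusted p = 2.55e-09 in edgeR). Apoe, expressed in many cell types, rose 1.21-fold, and Rbp4, the retinol carrier of plasma, rose 1.66-fold (log2 fold change 0.73). Rbp4 did not pass in DESeq2 (adjusted p = 0.138), without WT replicate 1 (0.45, edgeR adjusted p = 0.199) or without CBE-KO replicate 2 (0.60, edgeR adjusted p = 0.135). Apob and Soat2 did not pass.

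**Figure D4:**
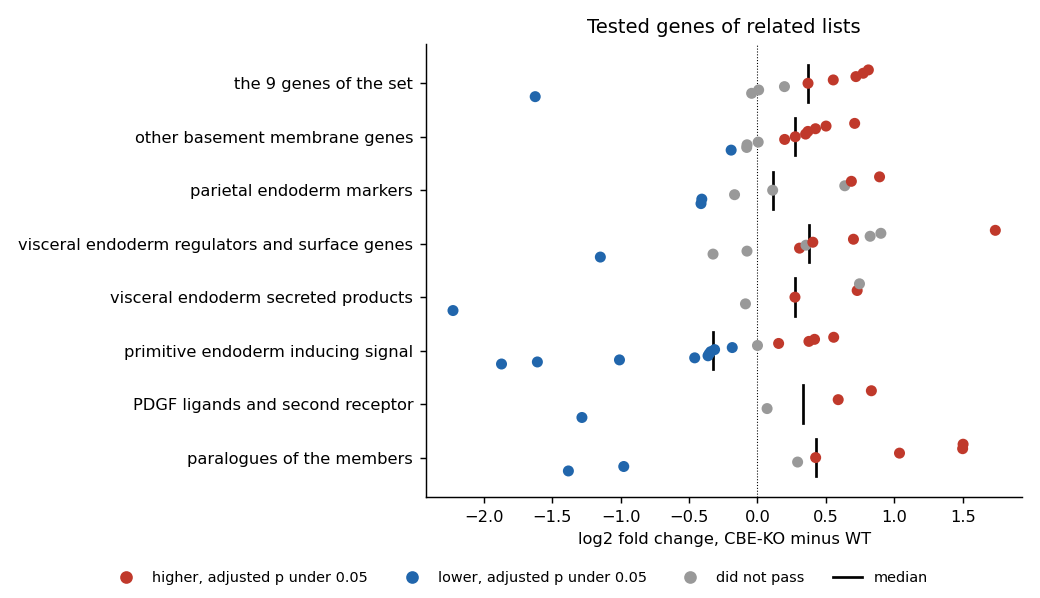
Log2 fold change (CBE-KO minus WT, horizontal axis) of every tested gene of the set and of 7 related lists; red and blue points passed as higher and lower, grey points did not pass, and black bars are medians. The median of the set is 0.37, those of 6 related lists lie between 0.11 and 0.43, and that of the inducing signal list is -0.33.

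The FGF and ERK genes that act above the GATA factors in the blastocyst were mostly lower. Of 14 genes, all tested, 9 fell, 4 rose and 1 did not pass, with a median log2 fold change of -0.33. Spry2 and Spry4, feedback inhibitors that ERK activity induces, fell from 67.1 and 63.3 to 16.5 and 19.2 CPM and from 111 and 117 to 36.0 and 38.8 CPM, 3.65-fold and 3.05-fold (edgeR adjusted p = 2.61e-11 and 3.48e-12). Etv4, an ETS factor downstream of FGF, fell 2.01-fold, from 205 and 195 to 96.2 and 103 CPM. Fgfr2, a receptor that primitive endoderm uses, rose 1.47-fold, from 11.5 and 10.5 to 15.3 and 17.1 CPM. Gata4 and Sox7 were thus higher in libraries in which these FGF feedback genes were lower.

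Relatives of the 9 genes were mostly scarce. Of 14 paralogues 7 were tested, 4 rose, 2 fell and 1 did not pass. Among these, Col4a5 entered the test only through CBE-KO and Gata1 only through WT, the genotype where each is high. The filter thus favoured their calls. Lama4, a laminin alpha chain of vessels and mesenchyme, rose from 1.44 and 1.53 to 4.62 and 3.78 CPM, 2.83-fold, and Col4a5, a further type IV collagen chain, rose from 0.616 and 1.38 to 3.33 and 2.27 CPM but did not pass without CBE-KO replicate 1 (edgeR adjusted p = 0.0660). Gata2 was at 1.44 and 1.02 CPM in WT and 2.34 and 2.75 CPM in CBE-KO. Gata1 was at 1.16 and 1.75 CPM in WT and 0.678 and 0.412 CPM in CBE-KO. Both of these blood-lineage factors passed in edgeR (adjusted p = 0.0177 for Gata2 and 0.0225 for Gata1), and neither did in DESeq2 (0.132 and 0.142) or in edgeR without WT replicate 2 (0.108 and 0.237) or CBE-KO replicate 2 (0.122 and 0.177). Hnf4g, the paralogue of Hnf4a, had 0 counts in all 4 libraries, within the floor of 3 counts.

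Markers of other cell types that could be present were counted in the same way, against 43.1% of all tested genes called. Of 8 fibroblast markers 3 were tested and 2 of them, Pdgfrb and Col1a1, rose. The 8 summed to 24.7 and 27.8 CPM in WT and 40.2 and 42.5 CPM in CBE-KO. Col1a2 had 0 and 1 reads in WT and 12 and 8 in CBE-KO, Col3a1 had 0 and 0 against 8 and 1, and Dcn, Lum and Postn had 0 in every library. Of 7 definitive endoderm markers 5 were tested, 1 rose (Cxcr4, log2 fold change 2.49) and 1 fell (Trh, -0.67). Cxcr4, with 17 and 9 reads in WT, entered the test only through CBE-KO, where it is high, so the filter favoured its call. The 7 summed to 73.0 and 77.7 CPM in WT and 58.8 and 55.5 CPM in CBE-KO, and Cer1 had 0 counts throughout. Most of each sum was Trh, at 64.1 and 67.7 CPM in WT and 43.0 and 39.7 CPM in CBE-KO. The lower sum in CBE-KO is thus that of Trh and not of the markers as a group.

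Of 11 trophoblast markers 9 were tested, 2 rose and 2 fell, and Tpbpa had 0 counts. Ascl2, a factor of trophoblast progenitors, and Tfap2c, a factor of trophoblast and germ cells, fell by 1.27 and 0.74 on the log2 scale. The keratin genes Krt18 and Krt8 rose by 0.41 and 0.20, but neither passed in DESeq2 (0.0635 and 0.165 as adjusted p) or in edgeR without WT replicate 2 (0.243 and 0.139), and Krt8 also lost its call without CBE-KO replicate 1 (0.0800) or 2 (0.0998). The 11 summed to 123 and 113 CPM in WT and 118 and 119 CPM in CBE-KO. Of 8 mesoderm markers 6 were tested and 2 rose, Kdr (log2 fold change 1.49) and Twist1 (1.12), and the 8 summed to 10.1 and 9.67 CPM in WT and 15.3 and 17.0 CPM in CBE-KO. Kdr did not pass in DESeq2 (adjusted p = 0.163) or without WT replicate 1, WT replicate 2 or CBE-KO replicate 2 (edgeR adjusted p = 0.115, 0.0908 and 0.287).

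Of 8 neuroectoderm markers 7 were tested, 5 rose and 1 fell, with a median log2 fold change of 1.43. Zfp521 rose from 4 reads in each WT library to 54 and 53 reads in the CBE-KO libraries (log2 fold change 3.59). Pax6, Sox3 and Cdh2 rose by 1.96, 1.44 and 1.43. Zfp521 and Pax6 (10 and 9 reads in WT) entered the test only through the CBE-KO libraries, where they are high. The filter thus favoured their calls as higher, and both are among the 5 rises and in the median. The 8 summed to 112 and 102 CPM in WT and 109 and 109 CPM in CBE-KO, and the most abundant of them, Tubb3, fell from a mean of 69.4 to 40.8 CPM (log2 fold change -0.77). Tubb3 and Nanog lie outside the naming rule and were named after their values were seen. Of the 10 embryonic stem cell markers 5 fell and 3 rose, and those with the largest changes were Klf4, Zfp42, Sox2 and Fgf4 at -0.49, -0.42, -0.35 and -0.34. Nanog, which opposes primitive endoderm, was slightly higher (log2 fold change 0.15, edgeR adjusted p = 0.0107), a call lost when either CBE-KO library was left out. The part of these cell types in the changes of the 9 genes was not tested.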

How the data were processed

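RNA was extracted with Trizol from E14 cells after retinoic acid, per the labels' protocols. The deposited values are raw read counts per Ensembl gene, 1 table per library, with no normalization, as the values show. The submitters' processing notes name the mm10 build, HISAT2 2.1.0 and HTSeq 0.9.1, without giving the role of each. The annotation release, the use of strand and the handling of reads that match several genes are not given in the sources used here, so genes that overlap others or have close copies are less certain.

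Symbols came from a supplied table that matched 52403 of 52636 identifiers. Positions and the bases before starts came from RefSeq on GRCm38.p6, the assembly that mm10 names.

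Genes were kept by edgeR's filterByExpr (16005 genes). A gene passes this filter if the group in which it is high has enough counts. Libraries were scaled by TMM, and CBE-KO was tested against WT with glmQLFit and glmQLFTest in edgeR 4.0.16 (R 4.3.3), two-sided, with Benjamini-Hochberg adjustment over all tested genes and a threshold of 0.05. The SE is the log2 fold change divided by the root of the F statistic, and intervals are 95%. With 2 libraries per group no single value of 2 against 2 libraries can reach an exact p below 0.333. The labels call replicates biological without naming separate cultures, so p-values measure the spread between these libraries. For each gene edgeR takes most of that spread from the other genes (15.32 prior and 2 residual degrees of freedom). A floor of 3 counts reflects counting alone, because without molecular identifiers duplicated reads are counted more than once. Transcript lengths were not used, so CPM of different genes do not compare their transcript numbers. Sums and rankings within a list, and ratios of 2 genes, are of reads.

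The members and lists were chosen with earlier results of these data known, so lists are described by counts and medians without a list test. The text names all 9 members and, from each list, the 4 largest changes that passed. Some genes outside the test are named by their counts. Foxa2, Pdgfb, Apob and Soat2 were tested, did not pass and are named as well, and other exceptions are stated where they occur. The values of 2 genes of the visceral endoderm list are not reported here and stay out of its counts. Replicates of a group differed by more than sampling noise (chi-square per degree of freedom 3.40 for WT and 2.70 for CBE-KO). Alternatives were DESeq2 1.42.0, other scalings and filters, the replicate number as a block, a threshold of 0.01, a minimum absolute log2 fold change of 1 and each library left out. Robust moderation was added after the data were seen. On simulated counts for 16005 genes with 200 changed by a log2 fold change of 1, edgeR recovered 143 (71.5%) and made 14 false calls. The simulation changed a far smaller share of genes than the 43.1% called in the data. Its recovery is therefore a check of the code and not the power of this comparison.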

Additional observations from a re-analysis of the deposited data

How the results depend on the processing

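Of 126 values of the 9 genes under alternatives, 112 kept the sign and the call, 7 changed sign and 7 lost the call, 5 of these where a log2 size of at least 1 was required. The stricter thresholds reused the main fit, so no sign could change there and a gene that had not passed could not change its call. Sign changes were those of genes that did not pass. Gata6 (0.01) became -0.0026 in DESeq2 and -0.0028 with median-of-ratios scaling and ranged from -0.036 to 0.049 with 1 library left out. Sox17 (0.20) ranged from -0.0020 to 0.41 with 1 library left out. Pdgfra (-0.04) became 0.062 with library totals and ranged from -0.17 to 0.089 with 1 library left out. The median of the set, 0.37, lay between 0.22 (without WT replicate 1) and 0.53 (without WT replicate 2) in the alternatives run.

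The number of all genes called, 6895, was 4577 in DESeq2 and 1383 where a log2 size of at least 1 was required. With that minimum the set had 1 call of 6, visceral regulators and surface genes 2 of 5 and visceral products 1 of 3. The inducing signal had 3 of 13 and PDGF genes 1 of 3. Paralogues kept 4 of 6 in edgeR, 3 higher and 1 lower, and had 2 in DESeq2. Over all tested genes 1383 of 6895 calls were kept. The basement membrane and parietal lists then had 0 in edgeR, 0 also at an unadjusted p under 0.05 and 0 in DESeq2. Parietal calls, 4, were 2 in DESeq2 and 2 at an adjusted p under 0.01, and 2 to 3 with 1 library left out, lowest without either CBE-KO library. Paralogue calls, 6, were 3 in DESeq2, 3 at an adjusted p under 0.01 and 3 to 6 with 1 library left out, lowest without WT replicate 2. The cause of these shifts was not tested, apart from the stricter thresholds. With a library left out, the lone library of a group is assumed to vary like the other group.

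With library totals the median change over all genes was 0.11 (log2), and the share of calls that were higher went from 50.2% to 67.0%. The same-numbered libraries did not deviate together from their group means (correlation 0.035), and the replicate block called 7027 genes, 6 of them in the set, and changed no call among the 9 genes. Genes of under about 5 CPM in a genotype, such as Dab2 and Sox7 in WT, Hnf4a in CBE-KO, and Gata1 and Gata2 in both, are the least precise here.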
